A study of Mus musculus with 8 samples.

Results

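The MS4A proteins are a family of small membrane proteins, and 7 of their genes were described here in the BV-2 line of mouse microglia: Ms4a4b, Ms4a4c, Ms4a4d, Ms4a6b, Ms4a6c, Ms4a6d and Ms4a7. They are 7 of the 46078 genes counted, and the table held 19 genes whose symbol begins with Ms4a. The family was selected on the level of Ms4a4c, which stood furthest below LPS alone in cells co-treated with garlic extract. The members' values of AGE+LPS against LPS are therefore given as a description, without p or calls. The counting intervals printed there for Ms4a4b and Ms4a4d cover counting error only. Calls in AGE+LPS against LPS are given only for lists of other genes. For Ms4a4c a p is printed only for FruArg+LPS against the control, which uses none of the libraries of that contrast.

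MS4A proteins cross the membrane several times, with both ends in the cytoplasm, and many of them sit beside immune receptors and change how those receptors signal. The best known are CD20 (Ms4a1) of B cells and the beta chain of the high-affinity IgE receptor (Ms4a2) of mast cells, while several of the others are made in macrophages and microglia. In humans, the MS4A gene cluster carries variants associated with the risk of Alzheimer's disease and with the amount of soluble TREM2, a microglial receptor.

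RNA-Seq libraries were made from BV-2 cells, an immortalized microglial line used at passages 5 to 6, with 2 libraries in each of 4 groups. All cells were kept without serum for 4 hours. Control cells then received no treatment. LPS cells received 100 ng/mL LPS, an outer membrane component of Gram-negative bacteria, for 20 hours, a time taken from the paper's methods. AGE+LPS cells were given 0.5% (v/v) AGE, an aged garlic extract, and FruArg+LPS cells 3 mM FruArg (the Amadori compound that arginine forms with glucose, present in the extract), each 1 hour before the same LPS. The study asked whether the extract and this component of it alter the response of the transcriptome to LPS. RNA extraction is given as RNeasy in the sample labels and as TRIzol in the paper's methods. By the labels, lane 3 held replicate 1 of every group and lane 6 held every replicate 2, so each replicate number names a lane that all 4 groups share. The column names of every replicate 2 library also carry a stamp of digits that those of replicate 1 lack. Its meaning is not stated. The replicate number thus separates 2 sets of libraries as well as 2 lanes. The series calls the replicates biological, and nothing else in the labels says that they were separate cultures. The p-values therefore measure the spread between 2 samples of a group, part of which may be technical. Total counts of replicates 1 and 2 were 2707500 and 8995052 in the control, 8720784 and 12069807 with LPS, 6795464 and 6669072 with AGE+LPS, and 4692715 and 5822113 with FruArg+LPS.

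Levels are CPM, counts brought to a common library total and scaled by TMM over the 8 libraries, with n = 2 libraries in each group. A floor of 3 counts is 0.276 to 0.933 CPM, depending on the library. RPKM divides CPM by the annotated exon length in kilobases and is the only scale on which levels of different genes are compared. Molecular identifiers were not used, so that floors and counting intervals cover counting error only. The 4 libraries of each comparison were fitted by quasi-likelihood in edgeR. A gene was called at a Benjamini-Hochberg adjusted p under 0.05 if its log2 fold change was at least 1 in either direction. The replicate block is the same fit with the replicate number, and so the lane and the stamped set together, as an added term. With 4 libraries the block leaves 1 residual degree of freedom. Its p-values therefore rest mostly on a variance estimate shared across genes, and small ones are to be read with that limit.

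The marker genes of the cell type were all detected, with those of resting microglia at low levels. All 13 microglia and macrophage markers were over 3 counts in some library, and their summed level was 3836 and 4598 CPM in the control, 4712 and 5372 CPM with LPS, 4413 and 5080 CPM with AGE+LPS, and 5593 and 5734 CPM with FruArg+LPS. The most abundant per length was Tyrobp in 4 libraries, both of the control among them, and Adgre1 in the other 4. Of the markers of resting microglia, Tmem119 reached at most 1.38 CPM and was at 0 in both LPS libraries. Cx3cr1 stood at 3.42 and 4.02 CPM and P2ry12 at 6.22 and 9.27 CPM in the control, and both were lower in every other library. Markers of cells in which other MS4A genes are best known were at or near the floor. Of 4 B cell markers, 1 was over 3 counts in a library (Pax5, at most 1.38 CPM), Cd79a was at 0 in all libraries, and the sum was at most 1.65 CPM. Of 5 mast cell and basophil markers, 2 were over 3 counts, 3 were at 0, and the sum was at most 2.25 CPM, with Cpa3 the highest per length in the 7 libraries with counts. Of 5 T cell markers, 2 were over 3 counts and 3 were at 0, with a sum of at most 1.31 CPM and Cd4 the highest per length in 4 libraries and Cd3d in 3. Of 5 markers of granulocyte precursors, 1 was over 3 counts and 1 was at 0, with a sum of at most 1.56 CPM and Ctsg the highest per length in 7 libraries. Astrocyte markers (1 of 3 over 3 counts, Slc1a2 at most 2.57 CPM) and oligodendrocyte markers (1 of 2, with a sum of at most 0.933 CPM) were low, and the 3 neuronal markers were at 0 in all libraries.

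The members lie in the Ms4a cluster on chromosome 19 (GRCm38, GENCODE M21), which spans 10962293 to 11640851, or 678.6 kb, and holds 35 annotated genes, 22 of them protein coding and 19 of them Ms4a genes. The 7 members occupy 283.8 kb of it. Ms4a7 (ENSMUSG00000024672) lies at 11321039 to 11336146 on the minus strand. It is followed on the plus strand by Ms4a4c (ENSMUSG00000024675) at 11404770 to 11427246, Ms4a4b (ENSMUSG00000056290) at 11443553 to 11467055 and Ms4a6c (ENSMUSG00000079419) at 11469366 to 11482192. Further along the plus strand come Ms4a6b (ENSMUSG00000024677) at 11516512 to 11531256 and Ms4a4d (ENSMUSG00000024678) at 11536801 to 11558467, and Ms4a6d (ENSMUSG00000024679) closes the group on the minus strand at 11586604 to 11604849. Ms4a4 and Ms4a6 genes are thus interleaved along the chromosome.

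Of the 12 Ms4a genes that are not members, 7 had no count in any library: Ms4a2, Ms4a5, Ms4a8a, Ms4a10, Ms4a13, Ms4a15 and Ms4a18. Ms4a1, which encodes CD20, had at most 3 counts in a library, Ms4a12 at most 2 and Ms4a3 at most 1. The remaining 2 were Ms4a14 and Ms4a4a. Ms4a14, which adjoins Ms4a7, had 1 and 16 counts in the control, 14 and 74 with LPS, 7 and 8 with AGE+LPS, and 5 and 8 with FruArg+LPS. The 2 LPS libraries were far apart, at 1.75 and 6.80 CPM, and lay above both control libraries on this scale. LPS against the control was not called for Ms4a14 (log2 fold change 1.99, SE 0.76, edgeR adjusted p = 0.075). It was called with the replicate block (2.25), with a filter of at least 1 count (2.02), without control replicate 2 (3.75) and without LPS replicate 1 (2.61). Ms4a4a had 1 and 10 counts in the control, 3 and 5 with LPS, 0 and 0 with AGE+LPS, and 0 and 1 with FruArg+LPS.

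**Figure D1:**
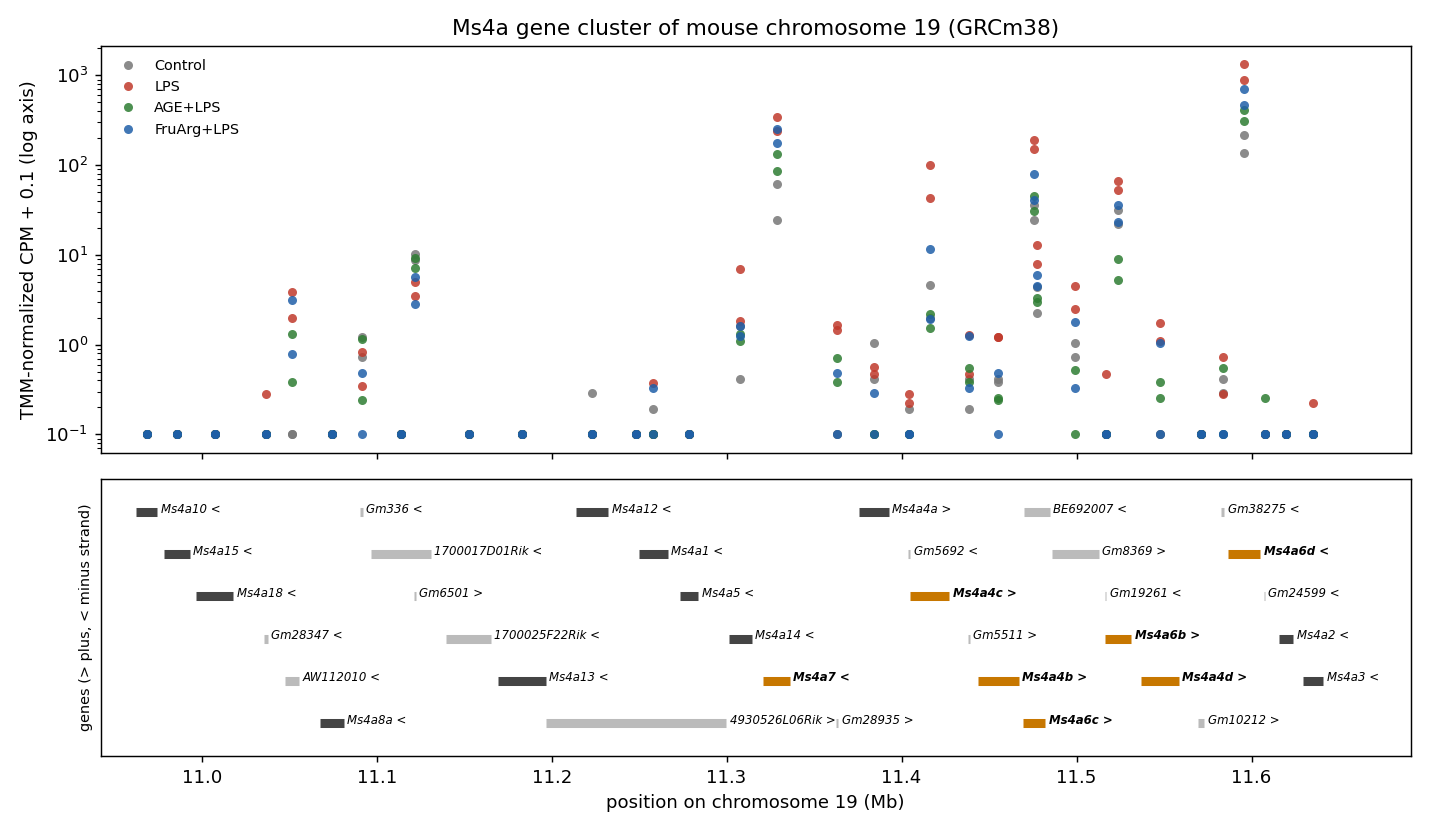
The Ms4a cluster on mouse chromosome 19 (GRCm38). Upper panel: TMM-normalized CPM plus 0.1 in each of the 8 libraries (log axis), placed at the middle of each gene; lower panel: the genes to scale, with the 7 members in orange, other Ms4a genes in dark grey, other genes in light grey, and > or < for the strand. The points above 10 CPM belong to Ms4a7, Ms4a4c, Ms4a6c, Ms4a6b and Ms4a6d, and, in LPS replicate 2 and control replicate 2, to BE692007 (12.8 CPM) and Gm6501 (10.1 CPM).

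The members differed widely in level. Per length, Ms4a6d was the most abundant in every group, with a mean of 102 RPKM in the control, 641 RPKM with LPS, 207 RPKM with AGE+LPS and 340.3 RPKM with FruArg+LPS. In each of the 8 libraries it made up 75.2 to 82.9% of the summed RPKM of the 7 members. In the control, the order below it was Ms4a6c (14.7 RPKM), Ms4a7 (9.75 RPKM), Ms4a6b (5.97 RPKM), Ms4a4c (1.82 RPKM), Ms4a4b (0.0337 RPKM) and Ms4a4d (0 RPKM). The libraries of Ms4a6c and Ms4a7, and those of Ms4a7 and Ms4a6b, overlapped on this scale. With LPS, Ms4a4c (40.9 RPKM) moved past Ms4a6b (13.4 RPKM) to lie under Ms4a6c (83.7 RPKM) and Ms4a7 (65.7 RPKM), followed by Ms4a4d (0.877 RPKM) and Ms4a4b (0.127 RPKM). Ms4a6c overlapped with Ms4a7, and Ms4a7 with Ms4a4c. Both co-treatments gave the order Ms4a6d, Ms4a7, Ms4a6c, Ms4a6b, Ms4a4c, Ms4a4d and Ms4a4b. In these groups Ms4a6b and Ms4a4c overlapped, as did Ms4a7 and Ms4a6c with AGE+LPS and Ms4a4d and Ms4a4b with FruArg+LPS. These overlaps are between libraries. Within each library the order of its group held, except that Ms4a4d and Ms4a4b were both at 0 in FruArg+LPS replicate 1. Dividing by coding length in place of exon length put Ms4a7 above Ms4a6c in the control and with LPS.

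**Figure D2:**
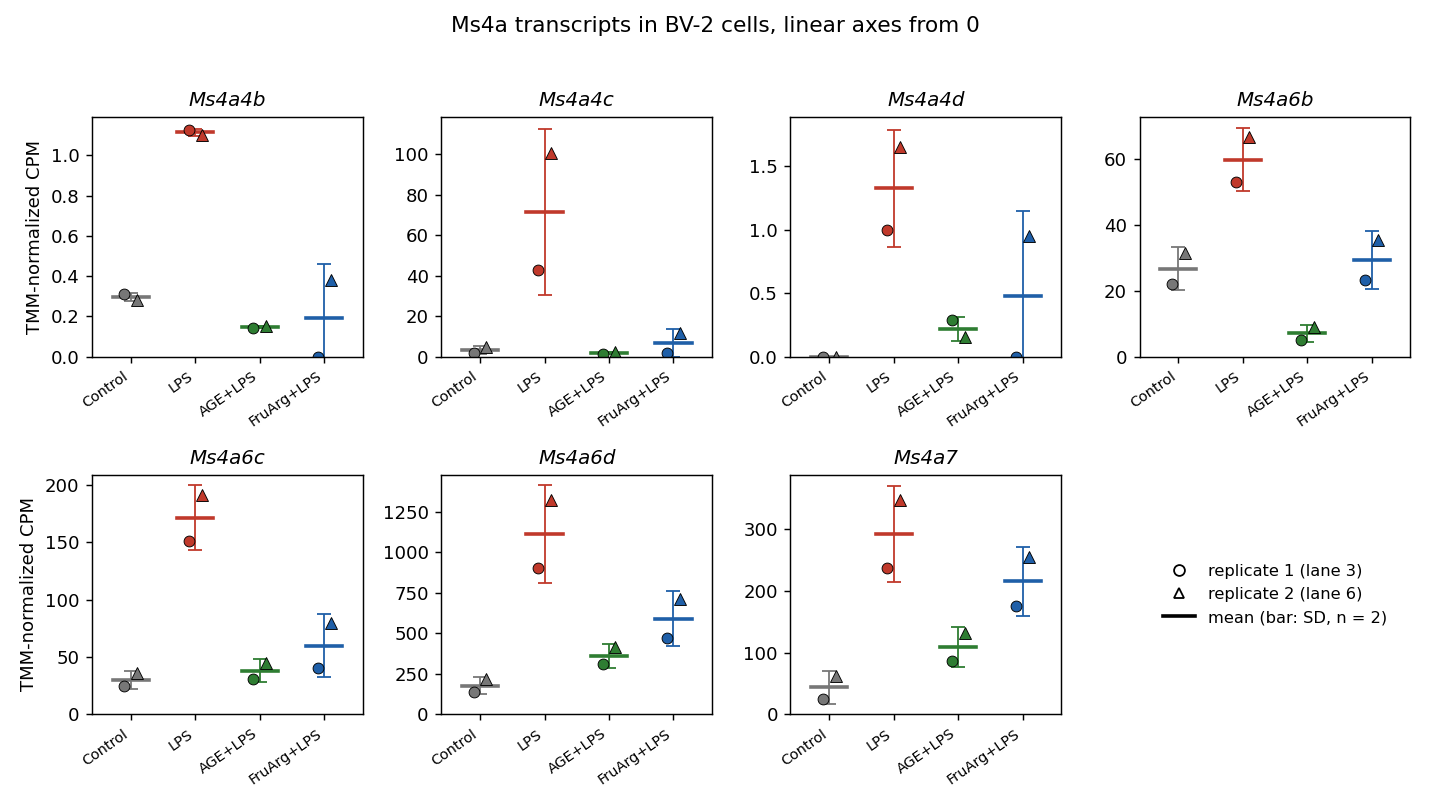
TMM-normalized CPM of the 7 members in the 4 groups (linear axes from 0), with replicate 1 as circles, replicate 2 as triangles, the mean as a line and the SD as a bar (n = 2). The LPS libraries are the highest for each gene except that Ms4a7 overlaps between LPS (237 and 348 CPM) and FruArg+LPS (176 and 255 CPM).

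Of the 7 members, 5 passed edgeR's filter on low counts and were tested. Ms4a4b and Ms4a4d did not pass, so that counts of calls are over 5 tested genes and not over the family. A low gene passes this filter through the group in which it is high, and the number of members called is therefore no support in itself. The scaling of the libraries also bears on the values. With library size in place of TMM, the median log2 fold change of all genes tested moved to -0.40 for LPS and for FruArg+LPS against the control, to -0.24 for AGE+LPS against the control, to 0.15 for AGE+LPS against LPS, and to -0.15 for FruArg+LPS against AGE+LPS. Changes are given relative to TMM. These are bulk libraries, in which fewer cells that express a gene and less RNA per cell cannot be told apart.

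Ms4a7 is a surface protein of macrophages and is often used to mark those at the borders of the brain. It stood at 24.6 and 62.2 CPM in the control libraries, 237 and 348 CPM with LPS, 86.0 and 133 CPM with AGE+LPS, and 176 and 255 CPM with FruArg+LPS. Each treated group lay above the control without overlap, AGE+LPS lay below LPS and below FruArg+LPS, and FruArg+LPS overlapped with LPS. Ms4a6d, a macrophage gene that is induced by inflammatory stimuli, stood at 138 and 215 CPM in the control, 899.7 and 1325 CPM with LPS, 307 and 412 CPM with AGE+LPS, and 472 and 709 CPM with FruArg+LPS. The 4 groups did not overlap, in the order control, AGE+LPS, FruArg+LPS and LPS.

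Ms4a6c is closely related to Ms4a6d, and its function is little described. It stood at 24.6 and 35.7 CPM in the control, 151 and 192 CPM with LPS, 31.0 and 45.0 CPM with AGE+LPS, and 40.6 and 79.3 CPM with FruArg+LPS. LPS lay above all other libraries, AGE+LPS overlapped with the control and with FruArg+LPS, and FruArg+LPS lay above the control. Ms4a6b, known mainly from T cells, stood at 22.1 and 31.4 CPM in the control, 53.1 and 66.7 CPM with LPS, 5.14 and 8.94 CPM with AGE+LPS, and 23.2 and 35.6 CPM with FruArg+LPS. Its AGE+LPS libraries lay below every other library, the control included, while FruArg+LPS overlapped with the control.

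Ms4a4c is the mouse gene on which the selection rests, and its protein is little studied. It stood at 1.87 and 4.49 CPM in the control (6 and 48 counts), 42.6 and 101 CPM with LPS (341 and 1096 counts), 1.43 and 2.12 CPM with AGE+LPS (10 and 14 counts), and 1.83 and 11.4 CPM with FruArg+LPS (8 and 60 counts). The LPS libraries were far above the rest, AGE+LPS overlapped with the control, and the 2 FruArg+LPS libraries were far apart, with replicate 1 at the level of the control and replicate 2 above it.

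Ms4a4b, an adapter protein of T cells that associates with the receptor GITR, had 1 and 3 counts in the control, 9 and 12 with LPS, 1 and 1 with AGE+LPS, and 0 and 2 with FruArg+LPS. The LPS libraries were the highest, at 21 counts against 4 in the control, a ratio of normalized levels of 3.87 (exact 95% counting interval 1.30 to 15.5). Against LPS the ratio was 0.132 (0.0150 to 0.541) with AGE+LPS and 0.187 (0.0212 to 0.764) with FruArg+LPS. These intervals cover counting error only. With a filter of at least 1 count, edgeR did not call Ms4a4b for LPS against the control (log2 fold change 1.95, adjusted p = 0.176). Nor did it for FruArg+LPS against LPS (-2.37, adjusted p = 0.607). Ms4a4d, a close relative, had no counts in the control, 8 and 18 with LPS, 2 and 1 with AGE+LPS, and 0 and 5 with FruArg+LPS. At the counts observed it was at least 6.38-fold higher with LPS than a floor of 3 counts over the group, which stands in for the 0 of the control. For 26 counts against 0, with no floor, the exact 95% lower limit of the ratio was 4.83. With FruArg+LPS it was at least 2.41-fold higher than this floor (exact 95% lower limit for 5 counts against 0, 1.32), and its 5 counts came from replicate 2 alone. Against LPS its ratio was 0.160 (0.0310 to 0.522) with AGE+LPS and 0.377 (0.113 to 0.999) with FruArg+LPS. With the filter of at least 1 count, edgeR called Ms4a4d higher for LPS against the control (log2 fold change 6.51, adjusted p = 7.5e-04). It did not call FruArg+LPS against the control (4.58, adjusted p = 0.344) or against LPS (-1.40, adjusted p = 0.809).

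LPS against the control asked how the members respond to the activation of the cells. Its LPS libraries are among those that chose Ms4a4c, which is described here and not counted. The 4 other tested members were all called higher, against 11.5% of all genes, and their median log2 fold change was 2.61 against 0.02 over all genes tested. Ms4a4c had a log2 fold change of 4.35 (SE 0.49), with LPS at 22.8 times the control in lane 3 and 22.4 times in lane 6. Its value lay between 3.58 (without LPS replicate 2) and 5.27 (without control replicate 2) when libraries were left out. Ms4a7 rose by 2.75 on the log2 scale (SE 0.39, edgeR adjusted p = 7.4e-04), 9.65-fold in lane 3 and 5.59-fold in lane 6. It moved to 2.27 without control replicate 1 and to 3.59 without control replicate 2. Ms4a6d rose by 2.69 (SE 0.30, edgeR adjusted p = 2.0e-04), 6.53-fold in lane 3 and 6.16-fold in lane 6. Ms4a6c rose by 2.52 (SE 0.25, edgeR adjusted p = 1.2e-04), 6.16-fold in lane 3 and 5.38-fold in lane 6. Ms4a6b rose by 1.18 (SE 0.25, edgeR adjusted p = 0.0063), 2.41-fold in lane 3 and 2.12-fold in lane 6. The call of Ms4a6b was lost with library size scaling (0.75), without control replicate 1 (0.97) and without LPS replicate 2 (1.00, just under the minimum).

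FruArg+LPS against the control shares no library with the contrast that chose Ms4a4c, and asked which members stayed above the untreated level when FruArg was present. Of the 5 tested members, 2 were called higher, against 9.59% of all genes, and the median log2 fold change was 1.00 against 0.00 over all genes tested. This median moved to 1.82 without control replicate 2, 1.71 without FruArg+LPS replicate 1, 0.75 without control replicate 1 and 0.42 without FruArg+LPS replicate 2. Ms4a7 rose by 2.30 (SE 0.39, edgeR adjusted p = 0.0049), 7.17-fold in lane 3 and 4.10-fold in lane 6, and by 3.13 without control replicate 2 and 1.80 without control replicate 1. Ms4a6d rose by 1.76 (SE 0.29, edgeR adjusted p = 0.0040), 3.42-fold in lane 3 and 3.30-fold in lane 6. Ms4a6c was not called, at 1.00 (SE 0.35, edgeR adjusted p = 0.075) and ratios of 1.65 in lane 3 and 2.22 in lane 6. Ms4a6c had adjusted p = 0.0018 with the replicate block and a log2 fold change of 0.99, under the minimum, and its adjusted p ranged up to 0.21 over the fits that kept every library. It was called without FruArg+LPS replicate 1 (1.40) and without control replicate 2 (1.28), and was at 0.42 without FruArg+LPS replicate 2. Ms4a4c was not called, at 1.00 (SE 0.80, edgeR adjusted p = 0.41) and ratios of 0.983 in lane 3 and 2.54 in lane 6. For Ms4a4c 1 library decided the value: it was 1.71 and called without FruArg+LPS replicate 1 (edgeR adjusted p = 0.0010), and -0.90 without FruArg+LPS replicate 2. With every library kept, its adjusted p lay between 0.25 and 0.60. Ms4a6b was not called, at 0.14 (SE 0.30, edgeR adjusted p = 0.77), and this direction flipped with library size scaling (-0.26), without control replicate 1 (-0.09) and without FruArg+LPS replicate 2 (-0.22). Without FruArg+LPS replicate 1, 4 members, Ms4a4c among them, were called higher in place of 2, against 10.4% of all genes.

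AGE+LPS against the control asked the same of the extract. Of the 4 tested members other than Ms4a4c, 2 were called higher and 1 lower, against 7.64% of all genes called higher and 7.41% called lower. Ms4a6b fell by 1.93 on the log2 scale (SE 0.33, edgeR adjusted p = 0.0036), to 0.233 of the control in lane 3 and 0.284 in lane 6. It was called lower under every alternative tried and without each library in turn, with log2 fold changes of -2.37 without AGE+LPS replicate 2, -2.13 without control replicate 1, -1.64 without control replicate 2 and -1.59 without AGE+LPS replicate 1. Ms4a7 rose by 1.31 (SE 0.38, edgeR adjusted p = 0.041), 3.50-fold in lane 3 and 2.13-fold in lane 6. Ms4a6d rose by 1.04 (SE 0.25, edgeR adjusted p = 0.020), 2.23-fold in lane 3 and 1.92-fold in lane 6. Both calls were lost together in 4 settings, which left 0 members called higher, against 5.49 to 8.49% of all genes, and Ms4a6b called lower, against 5.78 to 11.1%. The values of Ms4a7 and Ms4a6d were then 1.05 and 0.78 with library size scaling, 1.29 and 1.02 when the 4 groups were fitted together, 0.84 and 0.77 without control replicate 1, and 0.96 and 0.83 without AGE+LPS replicate 2. Without control replicate 2, Ms4a7 was at 2.16 and Ms4a6d at 1.39. Ms4a6c was not called (0.33, SE 0.27, edgeR adjusted p = 0.45), with ratios of 1.26 in both lanes. Ms4a4c, whose AGE+LPS libraries the selection used, had a log2 fold change of -0.94 (SE 0.55), which moved to -0.07 without control replicate 2 and -1.31 without control replicate 1, with ratios of 0.764 in lane 3 and 0.472 in lane 6.

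**Figure D3:**
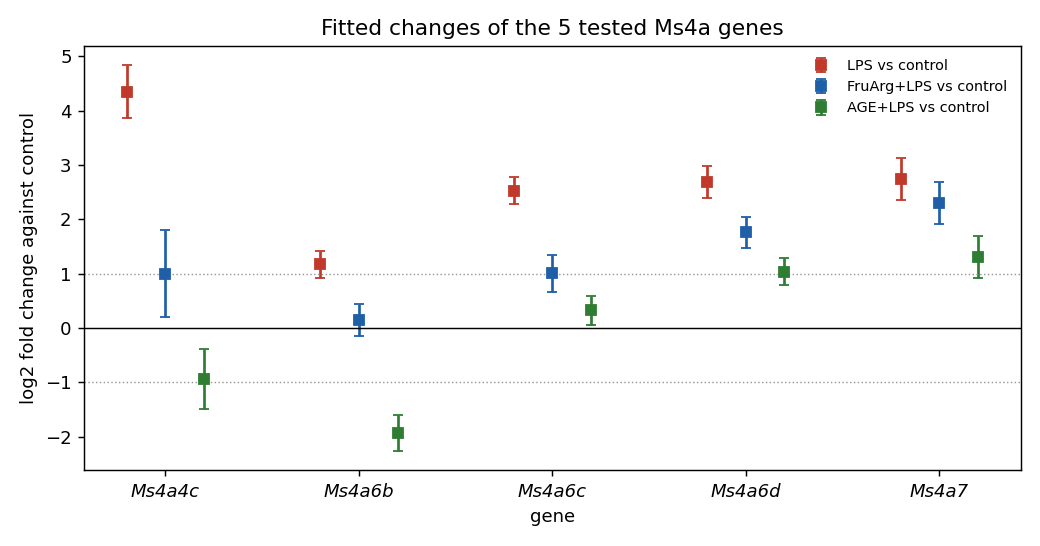
Log2 fold change against the control of the 5 tested members with LPS, FruArg+LPS and AGE+LPS (points, fitted with edgeR; bars, SE; dotted lines, the minimum of 1 in either direction). The 3 comparisons share the control libraries. Ms4a6b is at 1.18, 0.14 and -1.93 (with library size scaling 0.75, -0.26 and -2.19), and Ms4a7 at 2.75, 2.30 and 1.31.

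FruArg+LPS against LPS asked what the component changed in activated cells. The members had log2 fold changes of -3.40 for Ms4a4c (SE 0.67), -1.51 for Ms4a6c (SE 0.33), -1.02 for Ms4a6b (SE 0.30), -0.91 for Ms4a6d (SE 0.31) and -0.44 for Ms4a7 (SE 0.29). The selection used the LPS values of Ms4a4c, and calls are counted over the 4 others. None of them was called by edgeR, against 0% of all genes called lower: 0 of 12071 genes passed, while 1543 (12.8%) had an unadjusted p under 0.05, as did 3 of the 4. With the replicate block these were 30.2% of all genes and 4 of the 4. The adjusted p were 0.20 for Ms4a6c, 0.27 for Ms4a6b, 0.30 for Ms4a6d and 0.52 for Ms4a7. DESeq2 called 1 member lower, Ms4a6c (log2 fold change -1.52, adjusted p = 0.0032), against 0.853% of all genes. With a filter of at least 1 count edgeR called 2, Ms4a6b and Ms4a6c, against 1.34% of all genes.

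The replicate block changes this comparison. With the replicate block, 2 of the 4 were called lower, against 3.48% of all genes: Ms4a6c (-1.57) and Ms4a6b (-1.04). Ms4a4c had -3.55 in this fit. The fit with the block leaves 1 residual degree of freedom. Its adjusted p were 8.9e-10 for Ms4a6c (up to 0.21 over the fits that kept every library) and 8.3e-05 for Ms4a6b (up to 0.27). Ms4a6d had -0.91 with an adjusted p of 3.4e-04 (up to 0.30), under the minimum on the fold change. FruArg+LPS stood at 0.0430 of LPS in lane 3 and 0.113 in lane 6 for Ms4a4c, at 0.268 and 0.413 for Ms4a6c, and at 0.436 and 0.533 for Ms4a6b. For Ms4a6d the ratios were 0.524 and 0.535, and for Ms4a7, whose groups overlapped without regard to lane, 0.743 and 0.733. Single libraries moved the count without the block. It was 3 without FruArg+LPS replicate 2 (Ms4a6c -2.08, Ms4a6b -1.37 and Ms4a6d -1.24), against 6.89% of all genes called lower, and 1 without LPS replicate 1 (Ms4a6c -1.68), against 1.11%. It was 0 without FruArg+LPS replicate 1 and without LPS replicate 2, against 0.233% and 0.0245%. Ms4a4c lay between -5.28 (without FruArg+LPS replicate 2) and -2.64 (without FruArg+LPS replicate 1).

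FruArg+LPS against AGE+LPS tests the difference between the co-treatments directly. The 5 tested members had positive log2 fold changes, also with library size scaling: 2.06 for Ms4a6b (SE 0.39), 1.90 for Ms4a4c (SE 0.80), 0.97 for Ms4a7 (SE 0.28), 0.71 for Ms4a6d (SE 0.28) and 0.65 for Ms4a6c (SE 0.35). Of the 4 other than Ms4a4c, whose AGE+LPS values the selection used, none was called by edgeR, against 0% of all genes called higher: 0 of 11915 genes passed, and 668 (5.61%) had an unadjusted p under 0.05, as did 3 of the 4. With the replicate block these were 18.3% and 4 of the 4. The adjusted p were 0.82 for Ms4a6b and 0.84 for Ms4a7, Ms4a6d and Ms4a6c. With the replicate block 1 member was called higher, Ms4a6b (2.06, edgeR adjusted p = 0.0013, between 4.5e-04 and 0.82 over the fits that kept every library), against 0.546% of all genes. DESeq2 also called 1, Ms4a6b (2.06, adjusted p = 0.031), against 0.0336% of all genes. FruArg+LPS stood at 4.51 times AGE+LPS in lane 3 and 3.98 times in lane 6 for Ms4a6b. With the block Ms4a7 (0.98, adjusted p = 0.0024, up to 0.84 in other fits) and Ms4a6d (0.69, adjusted p = 0.027, up to 0.84) were under the minimum on the fold change. Their ratios were 2.05 and 1.92 for Ms4a7 and 1.54 and 1.72 for Ms4a6d in lanes 3 and 6. Without a block, Ms4a6b was called without AGE+LPS replicate 2 (2.50), without FruArg+LPS replicate 2 (1.71) and without FruArg+LPS replicate 1 (2.34), and not without AGE+LPS replicate 1 (1.71). A filter of at least 1 count also gave 1 call, against 0.141% of all genes. Ms4a4c was at 2.68 without FruArg+LPS replicate 1 and at 0.05 without FruArg+LPS replicate 2.

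AGE+LPS against LPS is the contrast that chose the members, and its values are a description. The AGE+LPS mean was 2.47% of the LPS mean for Ms4a4c, 11.7% for Ms4a6b, 22.1% for Ms4a6c, 32.3% for Ms4a6d and 37.4% for Ms4a7. Fitted log2 fold changes were -5.33 (SE 0.54), -3.09 (SE 0.33), -2.17 (SE 0.27), -1.63 (SE 0.28) and -1.42 (SE 0.30) in the same order. Within lanes 3 and 6, AGE+LPS stood at 0.0335 and 0.0211 of LPS for Ms4a4c, at 0.0967 and 0.134 for Ms4a6b, and at 0.204 and 0.235 for Ms4a6c. The ratios were 0.342 and 0.311 for Ms4a6d and 0.363 and 0.381 for Ms4a7. The FruArg+LPS mean, which the rule did not use, was 9.24% of the LPS mean for Ms4a4c, 49.0% for Ms4a6b, 34.9% for Ms4a6c, 53.1% for Ms4a6d and 73.7% for Ms4a7.

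Replicate 2 stood above replicate 1 for most members. It was the higher for 5 of the 7 members in the control, where Ms4a4d had no counts in either library, for 6 of 7 with LPS and with AGE+LPS, and for 7 of 7 with FruArg+LPS. Members near the floor are included. Ms4a4b had 1 and 1 counts with AGE+LPS, a log2 difference of 0.03. With FruArg+LPS Ms4a4b had 0 and 2 counts and Ms4a4d 0 and 5. The median difference of replicate 2 from replicate 1 was 0.53, 0.55, 0.49 and 0.96 on the log2 scale in the control, LPS, AGE+LPS and FruArg+LPS, against 0.02, -0.02, -0.01 and 0.02 over 12873 genes. The members were not alone in this. The summed CPM of the 26 genes of the interferon list described below was also higher in replicate 2 in every group (for example 6906 and 13810 with FruArg+LPS). That of the 10 partner genes was higher in replicate 2 in the control and lower in the other groups. The lane, the stamped set and the culture behind a replicate number cannot be told apart, and their part in these differences was not tested.

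The members' transcripts differ in how far reads can tell them apart. In coding sequence, Ms4a4b and Ms4a4c were identical at 91.7% of alignment columns, columns with gaps included. Ms4a4c and Ms4a4d were identical at 85.7%, and Ms4a4b and Ms4a4d at 83.5%. Ms4a6b and Ms4a6d were identical at 80.1%, Ms4a6b and Ms4a6c at 74.7%, and Ms4a6c and Ms4a6d at 67.2%, while Ms4a7 was identical to the others at 46.4 to 51.9%. The order depends on the gaps. With gapped columns left out, the Ms4a4 pairs stood at 91.7%, 87.9% and 85.6% in the same order. The Ms4a6 pairs then stood at 81.8%, 86.4% and 79.6%, and Ms4a7 against the others at 65.7 to 68.9%. Of all stretches of 100 bases in the transcript of Ms4a4c, 1.72% occurred exactly in another gene's transcript, namely Ms4a4b. For Ms4a4b the share was 0.882%, with 0.602% shared with Ms4a4c and 0.28% with Ms4a2. Ms4a4d, Ms4a6b, Ms4a6d and Ms4a7 shared none. For each member only the transcript with the longest coding sequence was searched. This was 1576 of 4453 exon bases for Ms4a7, 2680 of 4485 for Ms4a6b and 4750 of 8780 for Ms4a4b, and larger shares for the other members. The remaining exon bases, whose reads are also counted, were not searched. Allowing 2 mismatches within the cluster, the share was at most 5.23% (Ms4a6b) among the members other than Ms4a6c. Ms4a6c was the exception, with 51.3% of its stretches shared exactly, all of them with BE692007 and 0.574% also with Prdm11. BE692007 is a non-coding gene on the opposite strand, and its exons cover 1088 of the 2050 exon bases of Ms4a6c (53.1%). BE692007 itself had a mean of 0.619 RPKM in the control and 1.96 RPKM with LPS, below Ms4a6c at 14.7 and 83.7 RPKM. Reads in the shared bases may have been counted for either gene or for neither, and the effect on the level of Ms4a6c was not tested.

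RefSeq promoters (GRCm38.p6, 250 bases before to 50 after the start) were at hand for 6 of the 7 members, as 7 promoters with 2 for Ms4a7, and were searched on both strands for 5 motifs. The core of the interferon-stimulated response element, GAAANNGAA, was in 4 of the 7 promoters, against 8.56% of all 32851 promoters. These 4 belong to 3 members (Ms4a6b, Ms4a6c and both promoters of Ms4a7). The gamma-activated site TTCNNNGAA was in none of the 7 (8.30% of all promoters), and the NF-kB consensus was in none of them (8.46%). The AP-1 motif TGANTCA was in 2 of the 7 promoters, of Ms4a4b and Ms4a7 (7.81%). The PU.1 core GAGGAA was in 3 of the 7, of Ms4a4b, Ms4a4c and Ms4a7 (28.3%). The windows upstream of Ms4a6b and Ms4a6c aligned over 180 positions with 148 identical (82.2%). They are printed because these 2 genes share sequence before the start and were both called higher with LPS. Capitals mark the GAAANNGAA match, whose first base is at -206 in Ms4a6b (chr19:11518309-11518558, plus strand) and at -133 in Ms4a6c (chr19:11469118-11469367, plus strand), counted from the start.
Ms4a6b: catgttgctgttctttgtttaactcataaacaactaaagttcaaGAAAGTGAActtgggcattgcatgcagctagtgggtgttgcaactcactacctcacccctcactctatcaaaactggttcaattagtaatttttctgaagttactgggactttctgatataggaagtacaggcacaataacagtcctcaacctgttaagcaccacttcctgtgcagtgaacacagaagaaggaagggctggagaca
Ms4a6c: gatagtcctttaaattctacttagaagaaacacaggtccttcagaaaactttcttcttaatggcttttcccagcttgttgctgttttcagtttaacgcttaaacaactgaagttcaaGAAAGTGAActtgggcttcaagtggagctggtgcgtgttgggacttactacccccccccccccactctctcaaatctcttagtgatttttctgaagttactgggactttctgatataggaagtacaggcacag
A match describes letters only and is no evidence that a factor binds there.

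The windows upstream of Ms4a4b and Ms4a4c aligned over 133 positions with 117 identical (88.0%). The mean with LPS was nevertheless 40.9 RPKM for Ms4a4c and 0.127 RPKM for Ms4a4b (106 and 1.64 RPKM by coding length). The windows are printed to show their likeness, with the GAGGAA match in capitals, at -64 in Ms4a4b (chr19:11443308-11443557, plus strand) and at -61 in Ms4a4c (chr19:11407411-11407660, plus strand). The RefSeq starts of Ms4a4c and Ms4a6b lie inside the GENCODE genes, which begin at 11404770 and 11516512.
Ms4a4b: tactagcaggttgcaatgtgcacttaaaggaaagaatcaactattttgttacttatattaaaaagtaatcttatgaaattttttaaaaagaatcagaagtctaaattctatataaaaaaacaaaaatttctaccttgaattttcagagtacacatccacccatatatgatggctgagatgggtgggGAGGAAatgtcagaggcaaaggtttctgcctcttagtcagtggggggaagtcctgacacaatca
Ms4a4c: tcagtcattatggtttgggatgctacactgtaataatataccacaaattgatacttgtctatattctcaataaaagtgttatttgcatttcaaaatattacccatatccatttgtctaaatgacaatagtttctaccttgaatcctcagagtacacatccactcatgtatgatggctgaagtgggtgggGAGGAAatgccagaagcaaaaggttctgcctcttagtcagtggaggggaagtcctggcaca
Neither window holds GAAANNGAA, which says only that these letters are absent from it.

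Among 10 proteins that MS4A proteins act with or signal beside, 9 genes were tested and Tnfrsf18, which encodes GITR, was too low. With LPS against the control, 1 was called higher and 3 lower, against 11.5% and 11.1% of all genes. The kinase gene Syk rose by 2.26 (SE 0.21, edgeR adjusted p = 8.6e-05), from 111 and 106 CPM to 538 and 476 CPM. Cd33 fell by 3.42 (SE 0.48, edgeR adjusted p = 7.5e-04), from 19.9 and 23.7 CPM to 3.25 and 0.919 CPM. Trem2 fell by 1.37 (SE 0.24, edgeR adjusted p = 0.0026), from 437 and 489.7 CPM to 211 and 139 CPM. Clec7a, the receptor Dectin-1, fell by 1.36 (SE 0.33, edgeR adjusted p = 0.012), and its call was lost without control replicate 2 (-0.90). With library size scaling 5 were called lower, against 20.7% of all genes.

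The same partner genes were called with FruArg+LPS against the control, where Syk had a log2 fold change of 2.26, Cd33 of -1.58, Clec7a of -1.17 and Trem2 of -1.06, against 9.59% of all genes called higher and 7.84% lower. Without control replicate 2, Clec7a (-0.72) and Cd33 (-1.47) lost their calls and 1 was called lower, against 4.70% of all genes. Clec7a was also not called without FruArg+LPS replicate 1 (-0.87) or when the 4 groups were fitted together (-1.20), and Trem2 not without FruArg+LPS replicate 2 (-0.96). AGE+LPS against the control gave 1 higher, Syk (1.90), and 2 lower, Trem2 (-1.96) and Clec7a (-1.18), against 7.64% and 7.41% of all genes. The call of Clec7a was lost without control replicate 2 (-0.70), without AGE+LPS replicate 1 (-0.82) and in the joint fit of the 4 groups (-1.19), each of which left 1 lower, against 5.12 to 8.13% of all genes. Cd33 (-0.77, edgeR adjusted p = 0.059) was not called with AGE+LPS, except with library size scaling (-1.02), which made 3 lower, against 11.1%. Against LPS, edgeR called 0 of the 9 with either co-treatment, and with the replicate block 1 higher with each, Cd33 (2.71 with AGE+LPS and 1.99 with FruArg+LPS), against 4.91% and 2.87% of all genes. At an unadjusted p under 0.05 there were 1 with AGE+LPS and 2 with FruArg+LPS, against 17.8% and 12.8% of all genes, and with the block 8 and 4, against 47.0% and 30.2%. DESeq2 called 1 and 0 higher, against 1.82% and 0.820%. Without any 1 of its libraries AGE+LPS gave 1 call (0.974 to 2.16% of all genes), as did FruArg+LPS without its replicate 2 (4.92%).

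The list of 26 interferon genes holds genes of the interferon response along with the interferon gene Ifnb1 and the receptor genes Ifnar1 and Ifnar2. Of the 26, 25 were tested and 22 were called higher in each of the 3 comparisons with the control, which share the control libraries. The shares of all genes called higher were 11.5% with LPS, 9.59% with FruArg+LPS and 7.64% with AGE+LPS. The 25 had a median log2 fold change of 3.17 with LPS, 2.42 with FruArg+LPS (1.83 without FruArg+LPS replicate 2) and 1.74 with AGE+LPS. Over all genes tested the medians were 0.02, 0.00 and 0.01. With library size scaling 14 were called higher with AGE+LPS, against 5.49% of all genes. Irf7 stood at 83.4 and 128 CPM in the control, 882 and 989 CPM with LPS, 337 and 364 CPM with AGE+LPS, and 429 and 681 CPM with FruArg+LPS. Its 4 groups did not overlap, and it rose by 3.17 with LPS (SE 0.27, edgeR adjusted p = 5.4e-05). Against LPS, edgeR called 0 of the 25 lower with FruArg+LPS (median -0.76, and -1.26 without FruArg+LPS replicate 2), where 16 had an unadjusted p under 0.05 (12.8% of all genes), and 20 with the block (30.2%), while DESeq2 called 8 (0.853% of all genes), a filter of at least 1 count 11 (1.34%) and the replicate block 11 (3.48%). When single libraries were left out, the count was 15 without FruArg+LPS replicate 2 (6.89% of all genes), 11 without LPS replicate 1 (1.11%), 2 without FruArg+LPS replicate 1 (0.233%) and 1 without LPS replicate 2 (0.0245%). With AGE+LPS 7 were lower than with LPS (median -1.38), against 0.503% of all genes, and 17 with the block, against 4.82%. DESeq2 called 18 (2.65% of all genes), a filter of at least 1 count 19 (2.29%) and the joint fit of the 4 groups 14 (1.62%). Leaving out any 1 of these 4 libraries gave 13 to 16, against 1.70 to 2.94% of all genes: 16 when LPS replicate 1 was left out, 15 for AGE+LPS replicate 2, and 13 for each of the other 2 libraries. FruArg+LPS against AGE+LPS gave 0 calls on the list with edgeR, with and without the block, and 0 with DESeq2, while 4 had an unadjusted p under 0.05 without the block and 15 with it, against 5.61% and 18.3% of all genes.

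Among 10010 genes with a mean of at least 5 CPM, the likeness of each gene to a member was taken as the Pearson correlation of log2 CPM over the 8 libraries, which share 4 groups and 2 lanes. It is a description. The genes most like Ms4a4c were Svbp (0.991), Fcgr1 (0.985), Ahcyl1 (0.985), Phf11b (0.974) and Rufy3 (0.969). Fcgr1 stood at 183 and 225 CPM in the control, 574 and 657 CPM with LPS, 163 and 163 CPM with AGE+LPS, and 189 and 273 CPM with FruArg+LPS. Of the members, Ms4a6c was at rank 10 in likeness to Ms4a4c (0.961), Ms4a6b at rank 399 (0.816), Ms4a6d at rank 409 (0.814) and Ms4a7 at rank 1047 (0.687). The genes most like Ms4a6d, the member with the highest level per length, were Irgm2 (0.998), Parp12 (0.994), Ddx24 (0.990), Cd47 (0.990) and Ifi205 (0.990). Irgm2 stood at 19.3 and 29.6 CPM in the control, 148 and 233 CPM with LPS, 49.4 and 66.7 CPM with AGE+LPS, and 69.9 and 105 CPM with FruArg+LPS. Ms4a7 was at rank 69 in likeness to Ms4a6d (0.971), Ms4a6c at rank 286 (0.934) and Ms4a6b at rank 2698 (0.530). Ms4a7 thus lay closer to Ms4a6d than to Ms4a4c.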

How the data were processed

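RNA-Seq reads were counted in 8 libraries of BV-2 cells. The authors trimmed single-end reads with fastx_toolkit, mapped them with TopHat2 to GRCm38 and deposited counts per Ensembl gene made with featureCounts, without normalization. The versions of these tools, the strandedness and the treatment of reads with several places are not stated in the sources used here. Of the 46078 genes, 45143 were matched by identifier to GENCODE M21. Depth per library ran from 2707500 to 12069807 counts, and the chi-square per degree of freedom between replicates was 12.4 (control), 44.6 (LPS), 26.1 (AGE+LPS) and 23.7 (FruArg+LPS).

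Pairs of groups were fitted on all genes past filterByExpr with edgeR 4.0.16 in R 4.3.3 (TMM, glmQLFit and glmQLFTest, two-sided, Benjamini-Hochberg), after trials on simulated data. Calls needed an adjusted p under 0.05 and a log2 fold change of 1 or more in either direction. Where a comparison used libraries on which Ms4a4c was selected, members called were counted without it, a choice made after the values were seen. SE was taken as the absolute log2 fold change over the square root of F. The members and lists were chosen with earlier results of these data known. Besides the members, the genes named are other Ms4a genes over 3 counts in a library, Tmem176a and Tmem176b, genes of the cluster, listed partner, interferon and marker genes, and the 5 genes most like Ms4a4c and the member highest per length (log2 CPM with a prior count of 2). Irf7 among the interferon genes, the genes given values among those most like a member, and the neighbours described were chosen after their values were seen. Members that did not pass the filter were compared by their counts pooled over a group, with exact conditional binomial 95% intervals. Sequence comparisons used Python 3.11.15 with Biopython 1.88, and figures matplotlib 3.10.9.

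The alternatives were DESeq2 1.42.0, its size factors in edgeR (RLE), scaling by library size, low-count filters of 1 count in total or of 10 counts in each library, calls on the adjusted p alone, a single fit of the 4 groups, the replicate block, each library left out, coding length for the order of levels, and library size for the levels. Whether the replicate number pairs the samples was checked on the difference between replicates. Over 12873 genes its correlation from group to group was 0.244 to 0.628. Genes are not independent replicates. Values with the block stand beside those without it where a call or a count changed. With groups of 2, no test for outlying samples was made and no permutation test could reach p = 0.05. Other measurements of the study were not analysed here. Of the marker genes planned for other cell types, 2 are not reported here.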

Additional observations from a re-analysis of the deposited data

How the results depend on the processing

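The number of members called in either direction, for the comparisons other than AGE+LPS against LPS and 8 alternatives that keep every library, stayed within 1.5 times its value in 32 of 40 cases. It was taken over Ms4a6b, Ms4a6c, Ms4a6d and Ms4a7, and over Ms4a4c too with FruArg+LPS against the control. The other 8 were as follows, with the share of all genes called in either direction. With AGE+LPS against the control, in place of 3, library size scaling called 1 (16.6%) and the 4 groups in one fit 1 (12.4%). With FruArg+LPS against LPS, in place of 0, DESeq2 called 1 (1.67%), the filter of at least 1 count 2 (2.36%) and the replicate block 2 (6.35%). With FruArg+LPS against AGE+LPS, in place of 0, these gave 1 (0.0420%), 1 (0.195%) and 1 (0.898%). The cause was not tested.

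With each library left out in turn, the number called lay between 3 and 4 for LPS against the control (18.4 to 24.1% of all genes), 2 and 4 for FruArg+LPS against the control (11.8 to 27.2%), 1 and 3 for AGE+LPS against the control (10.9 to 16.5%), 0 and 3 for FruArg+LPS against LPS (0.0408 to 11.8%), and 0 and 1 for FruArg+LPS against AGE+LPS (0.0805 to 1.85%). In these fits the lone sample of a group is assumed to vary like the other group.

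Of 235 log2 fold changes of members in the fits with every library, 221 kept their direction and, where calls were counted, their side of the threshold, 8 passed it, 5 no longer did and 1 reversed, Ms4a6b with FruArg+LPS against the control (-0.26 with library size scaling). With a library left out, 101 of 120 did so, 10 passed the threshold and 6 no longer did. The 3 that reversed were again in FruArg+LPS against the control: Ms4a4c without FruArg+LPS replicate 2 (-0.90), and Ms4a6b without control replicate 1 (-0.09) and without FruArg+LPS replicate 2 (-0.22). With single libraries left out, this comparison gave -0.90 to 1.82 for Ms4a4c and -0.22 to 0.42 for Ms4a6b. The cause was not tested.

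The replicate block takes the replicate number as a term, which stands for the lane and the stamped set together. Where the fit without it called 0, the block called 2 members lower with FruArg+LPS than with LPS (3.48% of all genes). The block likewise called 1 higher with FruArg+LPS than with AGE+LPS (0.546%), again in place of 0. Against the control it changed no call of a tested member. Of the counts on the interferon and partner lists, 177 of 192 stayed within 1.5 times their value, and 80 of 96 with a library left out. Among the other genes named, 216 of 229 log2 fold changes kept direction and side, 10 lost the threshold and 3 passed it, and with a library left out 97 of 116 kept both.

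The filter of at least 10 counts in each library removed Ms4a4c from every comparison except AGE+LPS against LPS and gives no value for it there. Groups of 2 libraries and totals from 2707500 counts limit what can be seen. Ms4a4b and Ms4a4d had at most 12 and 18 counts in a library. Their differences rest on the counting intervals given, which cover counting error only, and on the fit with a filter of at least 1 count. The 6 and 8 counts in the lower libraries of Ms4a4c in the control and with FruArg+LPS leave its change between these groups uncertain.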

Other observations

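The cluster holds 35 genes, 19 of them Ms4a genes, and 5 of its remaining genes are described here for LPS against the control. They were chosen after their values were seen, and how many of the remaining genes were tested is not given. Gm8369, BE692007 and Gm6501 were called, against 22.6% of all genes called in either direction. The other 2 are given by pooled counts, which cover counting error only. Gm8369 had 2 and 10 counts in the control, 19 and 48 with LPS, 3 and 0 with AGE+LPS, and 1 and 9 with FruArg+LPS. It was higher with LPS (log2 fold change 2.05, edgeR adjusted p = 0.027). BE692007, which overlaps Ms4a6c on the other strand, was also higher (1.59, edgeR adjusted p = 0.020), and Gm6501 was lower (-1.15, edgeR adjusted p = 0.036). These calls were not stable. That of BE692007 was lost with library size scaling (1.16), without control replicate 1 (1.29) and without LPS replicate 2 (1.17). Those of Gm8369 and Gm6501 were lost with DESeq2 (2.10 and -1.15), when the 4 groups were fitted together (2.02 and -1.19), without control replicate 1 (1.89 and -1.25) and without control replicate 2 (2.45 and -1.05). Gm8369 also lost it with library size scaling (1.63) and without LPS replicate 2 (1.53), and Gm6501 without LPS replicate 1 (-0.92).

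The other 2 are long non-coding RNA genes without counts in the control. AW112010 had 15 and 41 counts with LPS, 2 and 8 with AGE+LPS, and 3 and 16 with FruArg+LPS, and at the counts observed was at least 13.7-fold higher with LPS than a floor of 3 counts over the group, which stands in for the 0 of the control. The values were 3.40 with AGE+LPS and 9.15 with FruArg+LPS. Against 0 counts, with no floor, the exact 95% lower limits of the ratios were 10.8, 2.29 and 6.74 for LPS, AGE+LPS and FruArg+LPS. Gm28935, which lies between Ms4a7 and Ms4a4a, had 11 and 17 counts with LPS, 2 and 4 with AGE+LPS, and 0 and 2 with FruArg+LPS, and was at least 6.87-fold higher with LPS than this floor, with an exact 95% lower limit of 5.23 against 0 counts.

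The relatives Tmem176a and Tmem176b lie outside the cluster. Tmem176a stood at 10.6 and 12.5 CPM in the control, 17.9 and 12.6 CPM with LPS, 23.7 and 21.5 CPM with AGE+LPS, and 40.3 and 29.5 CPM with FruArg+LPS. It was called higher with FruArg+LPS than in the control (1.60, SE 0.28, edgeR adjusted p = 0.0054) and was not called with LPS (0.41, edgeR adjusted p = 0.33) or with AGE+LPS (0.96, edgeR adjusted p = 0.026, under the minimum on the fold change). Against LPS alone, FruArg+LPS was not called for it without the block (1.21, edgeR adjusted p = 0.23) and was with the block (1.21, adjusted p = 2.3e-04). Tmem176b was not called with FruArg+LPS against the control (0.99, edgeR adjusted p = 0.023, just under the minimum).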
